A study of Mus musculus with 20 samples.

Results

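The mouse genes whose symbols are Zfp followed by a number code for zinc finger proteins, and they were followed through RNA sequencing of stem and progenitor cells of 5 kinds. Members were taken from the gene expression table deposited by the authors by symbol, leaving out Zfp57, Zfp462 and a stretch of chromosome 17 around Pou5f1. No measured value entered that rule, but it was set with earlier results of these data known. The authors' table held 11767 of the 55419 models counted, and how those were chosen was not examined. The members came to 217 transcript models of 193 genes, out of 11767 named models of 10334 genes. Each group had 2 RNA libraries. The groups were induced pluripotent stem (iPS) cells grown in 2i medium (here iPS in 2i), iPS cells grown in medium with serum and LIF (iPS), primary neural progenitor cells (NPC), V6.5 embryonic stem cells in 2i medium (ES in 2i), and V6.5 embryonic stem cells in medium with LIF (ES). The strain of every group was 129SvJae x C57BL/6, the V6.5 line was male, and the NPC and the iPS cells derived from such cells carried Sox2-eGFP. The NPC came from whole brains at postnatal day 1 and were first grown as neurospheres. 2i medium lacks serum and contains, beside LIF, CHIR99021 and PD0325901, which inhibit the kinases GSK3 and MEK. ES and iPS cells were expanded on inactivated mouse fibroblast feeders and then moved to gelatin to remove them. The labels do not say how many clones or animals the libraries stand for. They do not call the replicates separate cultures either, so that each p-value rests on a spread between libraries that may be technical.

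Most proteins named Zfp carry repeated C2H2 zinc fingers, small loops held by a zinc ion that each read a few bases of DNA. In mammals the largest class also carries a KRAB domain, which binds the co-repressor Trim28. Trim28 in turn brings the histone methyltransferase Setdb1 and heterochromatin proteins to the bound DNA, and in mouse ES cells this machinery silences retrotransposons and keeps imprints. KRAB zinc finger genes arose by repeated duplication and lie in clusters of near-identical copies. Other Zfp genes work differently, such as Zfp36 and its relatives, whose CCCH fingers bind AU-rich messenger RNA and start its decay. The labels and tables used here do not say which members carry a KRAB domain.

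Libraries held 1150624 to 17286063 reads assigned to a transcript model, and the share of reads in no model ran from 26.5% to 86.6%. The 2 ES libraries differed most in that share, at 26.5% and 81.5%, and the iPS libraries stood at 75.8% and 68.4%. Among members, replicates correlated with r of 0.906 (NPC) to 0.977 (ES in 2i) on the log2 scale. Of 8 named pluripotency markers, 7 had no count in either NPC library, while 4 named progenitor markers summed to 6986 and 8348 CPM (counts scaled to library size) in NPC and to under 80 CPM in every other library. Feeder fibroblast markers (7 of 10 named) summed to 911 and 928 CPM in iPS in 2i, 2749 and 2950 CPM in iPS, 75.4 and 106 CPM in NPC, 444 and 455 CPM in ES in 2i, and 1211 and 1401 CPM in ES. None of the 5 microglial markers was named. Of 6 neuronal markers Tubb3 alone was, with 364 and 351 CPM in iPS in 2i, 955 and 777 CPM in iPS, 35.2 and 36.2 CPM in NPC, 220 and 259 CPM in ES in 2i, and 252 and 310 CPM in ES. The astrocyte markers (2 of 6 named) summed to 15.1 and 15.4 CPM in NPC and to at most 1.85 CPM elsewhere, and the 1 named oligodendrocyte marker of 5 had 0.837 to 8.66 CPM. In bulk RNA, fewer cells of a type and less RNA per cell cannot be told apart.

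The results turn on 6 members whose promoters show how unlike these genes are at their starts. The 250 bases before each annotated start are printed below from RefSeq on GRCm38.p6, on the gene's strand, with every CpG dinucleotide in capitals. Zfp768 (chr7:127345315-127345564, minus strand) and Zfp628 (chr7:4914967-4915216, plus strand) are shown because they were higher in iPS than in ES and lower in iPS in 2i than in iPS. Zfp941 (chr7:140822179-140822428, minus strand) and Zfp459 (chr13:67421419-67421668, minus strand) are shown because they were lower in iPS than in ES and higher in iPS in 2i than in iPS. For these 4 genes both comparisons share the iPS libraries, so the opposite signs are not independent. Zfp534 (chr4:147702632-147702881, minus strand) rose in 2i in both lines, and Zfp296 (chr7:19577037-19577286, plus strand) fell in 2i in ES cells and rose in iPS cells.
Zfp768: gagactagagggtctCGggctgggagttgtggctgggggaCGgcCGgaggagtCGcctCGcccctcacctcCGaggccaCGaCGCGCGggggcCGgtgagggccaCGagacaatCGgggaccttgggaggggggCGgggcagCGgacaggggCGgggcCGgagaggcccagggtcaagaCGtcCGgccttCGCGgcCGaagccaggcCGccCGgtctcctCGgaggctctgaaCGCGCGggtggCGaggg
Zfp628: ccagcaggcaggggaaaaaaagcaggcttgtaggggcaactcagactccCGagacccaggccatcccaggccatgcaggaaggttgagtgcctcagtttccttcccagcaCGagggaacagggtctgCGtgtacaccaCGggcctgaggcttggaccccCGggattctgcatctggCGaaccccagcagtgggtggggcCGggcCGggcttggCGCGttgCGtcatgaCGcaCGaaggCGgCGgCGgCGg
Zfp941: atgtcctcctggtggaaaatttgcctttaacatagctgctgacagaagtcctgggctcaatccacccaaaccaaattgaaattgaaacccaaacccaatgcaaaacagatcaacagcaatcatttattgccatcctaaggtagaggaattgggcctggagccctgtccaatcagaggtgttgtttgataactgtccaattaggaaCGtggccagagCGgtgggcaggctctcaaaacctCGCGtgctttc
Zfp459: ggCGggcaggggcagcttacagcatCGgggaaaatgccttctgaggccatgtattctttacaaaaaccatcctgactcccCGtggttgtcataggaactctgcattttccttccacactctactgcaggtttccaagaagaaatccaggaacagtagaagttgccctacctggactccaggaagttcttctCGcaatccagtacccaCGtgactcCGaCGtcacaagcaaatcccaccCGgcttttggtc
Zfp534: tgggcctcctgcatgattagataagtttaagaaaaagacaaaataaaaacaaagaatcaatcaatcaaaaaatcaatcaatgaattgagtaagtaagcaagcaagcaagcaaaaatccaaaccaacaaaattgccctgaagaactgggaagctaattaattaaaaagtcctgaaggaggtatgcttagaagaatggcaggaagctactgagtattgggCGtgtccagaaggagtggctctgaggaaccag
Zfp296: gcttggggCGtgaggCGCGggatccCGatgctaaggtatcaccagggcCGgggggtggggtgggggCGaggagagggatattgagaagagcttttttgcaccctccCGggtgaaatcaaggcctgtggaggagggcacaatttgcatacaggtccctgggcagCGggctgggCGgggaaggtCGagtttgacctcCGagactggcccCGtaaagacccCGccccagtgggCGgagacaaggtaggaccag
The windows of Zfp768, Zfp628 and Zfp296 held 29, 17 and 14 CpG at a GC content of 75.2%, 66.0% and 64.0%. Those of Zfp941, Zfp459 and Zfp534 held 4, 8 and 1 CpG at 47.2%, 51.6% and 38.0%.

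Members lay unevenly over the genome, with 46 of the 193 genes on chromosome 7, 28 on chromosome 17, 16 on chromosome 13 and 15 on chromosome 8. Members made up 5.74% of the named genes of chromosome 7 and 0.21% of those of chromosome 10. A low-count filter kept 190 models of 173 genes, and the 27 models left out had at most 110 counts over all 10 libraries. Those tested had a median level of 2.56 log2 CPM, against 2.96 for all 11031 models tested, so many members rest on few counts. The highest mean of the 5 groups stood in iPS in 2i for 20 of the 190 models, in iPS for 25, in NPC for 81, in ES in 2i for 36 and in ES for 28. The lowest mean stood in iPS in 2i for 15 models, in iPS for 72, in NPC for 44, in ES in 2i for 37 and in ES for 22. Among these 190 models, being lowest was thus least common in iPS in 2i and commonest in iPS. The same counts were not made over all models, so they cannot be read as a trait of the members.

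**Figure D1:**
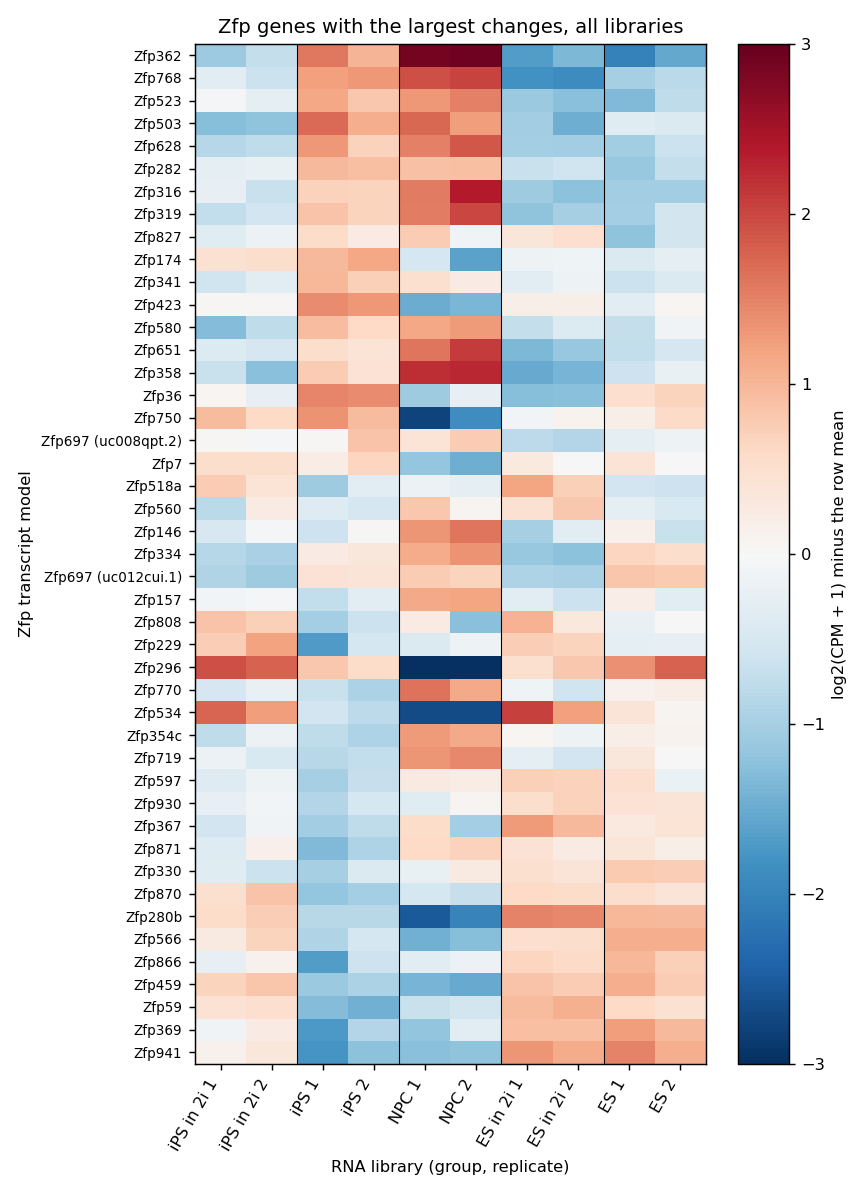
Heat map of the Zfp models with the largest changes among those past the threshold with a mean of at least 2 log2 CPM (rows, sorted by the log2 change of iPS over ES) in the 10 RNA libraries (columns), coloured by log2(CPM + 1) minus the mean of the row. The 2 libraries of a group look alike, the iPS and NPC libraries are high in most of the upper rows, and the iPS libraries are low in the lower rows, where iPS in 2i is nearer to the ES libraries.

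Counts of members past the threshold (edgeR quasi-likelihood test, Benjamini-Hochberg adjusted p under 0.05 over all models tested) were read against the share of all models that passed in the same direction. In NPC against ES, 50 members were higher and 47 lower (26.3% and 24.7%), where 27.3% and 33.7% of all models were. In iPS against NPC, 23 were higher and 56 lower (12.1% and 29.5%), beside a background of 29.3% and 22.0%. In iPS against ES, 36 were higher and 60 lower (18.9% and 31.6%), beside 25.9% and 26.9%. Fewer members passed in ES in 2i against ES, with 16 higher and 21 lower (8.42% and 11.1%) beside 11.3% and 13.2%. In iPS in 2i against iPS, 43 were higher and 32 lower (22.6% and 16.8%) beside 21.1% and 21.5%. In iPS in 2i against ES in 2i, 21 were higher and 16 lower (11.1% and 8.42%) beside 13.7% and 11.6%. The response to 2i was called more positive in iPS than in ES cells for 40 members and more negative for 17 (21.1% and 8.95%), beside 15.1% and 12.2%.

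The median log2 change of the members departed most from that of all models in iPS against NPC, at -0.49 beside 0.15. It was -0.39 beside -0.03 in iPS against ES, and 0.16 beside -0.20 in NPC against ES. In iPS in 2i against iPS it was 0.29 beside 0.03, and for the difference between the responses 0.28 beside 0.01. In ES in 2i against ES (-0.08 beside 0.00) and in iPS in 2i against ES in 2i (0.03 beside -0.01) the medians were near those of all models. In both comparisons with NPC, the median of all models itself stood away from 0, so changes there are best read relative to it. Setting members without counts in a group to their bound left the median of each comparison between 2 groups as it was.

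**Figure D2:**
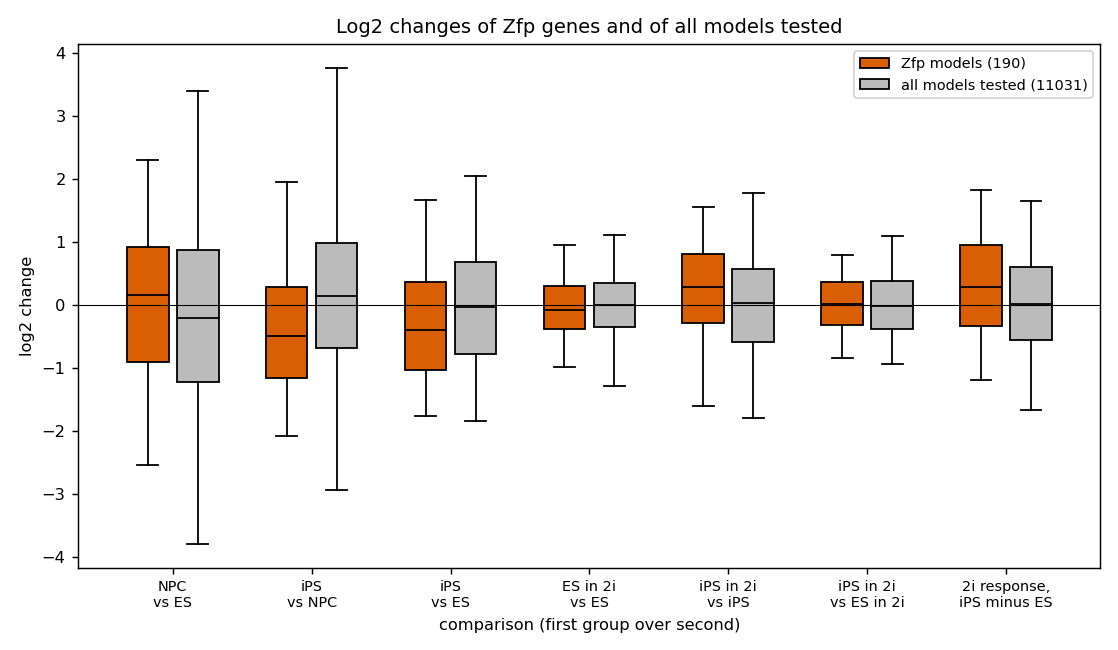
Box plots of log2 change in the 7 comparisons, first group over second, for the 190 Zfp models and for all 11031 models tested; boxes span the quartiles, lines mark medians and whiskers reach the 5th and 95th percentiles. The Zfp boxes sit below the grey ones in iPS vs NPC and iPS vs ES, and above them in NPC vs ES, in iPS in 2i vs iPS and in the difference between the 2i responses.

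Among members tied to pluripotency, Zfp296, a gene of pluripotent cells whose product raises the efficiency of reprogramming in mouse cells, varied most. It had 138 and 123 CPM in iPS in 2i, 62.3 and 51.9 CPM in iPS, 0 and 0.869 CPM in NPC, 49.4 and 63.2 CPM in ES in 2i, and 92.7 and 123 CPM in ES. NPC stood far below every other library, and among the rest iPS and ES in 2i overlapped while the higher ES library came up to the lower one of iPS in 2i. With 3 counts in NPC against 2119 in ES, the ratio of scaled counts was 152-fold lower in NPC (95% counting interval 51.9 to 737). It was lower in iPS than in ES (log2 change -0.90 ± 0.16, where ± is the standard error throughout, adjusted p = 2.28e-05), and higher in iPS in 2i than in ES in 2i (1.21 ± 0.16, adjusted p = 7.42e-07). Zfp706, linked in mouse ES cells to the exit from self-renewal, had 113 and 116 CPM in NPC and 238 to 340 CPM in the libraries of the other groups. Its log2 change was -1.33 ± 0.14 in NPC against ES (adjusted p = 7.95e-10) and 1.12 ± 0.14 in iPS against NPC (adjusted p = 4.52e-08), and it passed in none of the other 5 comparisons. Zfp207 codes for a kinetochore protein and had 2 tested models. One (uc007kmc.2) was lower in iPS than in ES (-1.64 ± 0.43, adjusted p = 0.00204), and with both models of the gene summed that change was -0.51 and did not pass. Zfp42, Zfp281, Zfp322a and Zfp143 were not analysed here.

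Of the CCCH members, Zfp36 (tristetraprolin), a gene induced by growth factor and MEK signalling, had 17.6 and 14.1 CPM in iPS in 2i, 48.7 and 46.6 CPM in iPS, 7.53 and 14.2 CPM in NPC, 6.45 and 6.49 CPM in ES in 2i, and 24.5 and 27.4 CPM in ES. Each line in 2i lay below the same line outside 2i without overlap. The log2 change in 2i was -1.59 ± 0.20 in iPS cells (adjusted p = 6.68e-08) and -1.95 ± 0.20 in ES cells (adjusted p = 4.38e-09). It was higher in iPS than in ES both outside 2i (0.89 ± 0.19, adjusted p = 0.000172) and in 2i (1.24 ± 0.21, adjusted p = 3.65e-05). Zfp36l1, a paralogue with the same kind of fingers, passed in none of the 7 comparisons, with 67.2 to 101 CPM over the 10 libraries. Zfp36l2 passed in iPS in 2i against iPS (-0.72 ± 0.16, adjusted p = 0.000395), with 44.7 and 51.0 CPM in iPS in 2i against 90.9 and 68.1 CPM in iPS, and that call was lost without iPS replicate 1.

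Members with roles in neural development were not simply highest in NPC. Zfp423, a partner of SMAD and EBF factors needed for the cerebellum, had 100 and 101 CPM in iPS in 2i, 261 and 241 CPM in iPS, 34.3 and 37.1 CPM in NPC, 111 and 110 CPM in ES in 2i, and 77.2 and 102 CPM in ES. It was lowest in NPC and highest in iPS, and neither of these overlapped any other group. It was lower in NPC than in ES (-1.28 ± 0.17, adjusted p = 7.6e-08) and higher in iPS than in ES (1.51 ± 0.14, adjusted p = 1.11e-10). Zfp503, which acts in striatal development in mice, had 1.02 and 1.12 CPM in iPS in 2i, 14.8 and 9.36 CPM in iPS, 15.1 and 10.7 CPM in NPC, 1.38 and 0.779 CPM in ES in 2i, and 2.81 and 2.63 CPM in ES. Its level in iPS overlapped that in NPC, and in 2i the 2 lines overlapped. It fell in iPS in 2i against iPS (-3.21 ± 0.38, adjusted p = 3.1e-08) and in ES in 2i against ES (-1.18 ± 0.35, adjusted p = 0.0119), the second call being lost without ES replicate 1, without ES in 2i replicate 2 and in DESeq2. Zfp704 was higher in NPC than in ES (1.47 ± 0.44, adjusted p = 0.00469), a call lost without NPC replicate 2 or without ES replicate 1. The low-count filter left out Zfp238, and Zfp521, Zfp335, Zfp536 and Zfp703 were not analysed here.

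Of KRAB members with a known target, Zfp445, which helps keep imprints in mice, had 22.5 and 18.9 CPM in iPS in 2i, 11.3 and 11.9 CPM in iPS, 25.1 and 27.2 CPM in NPC, 18.0 and 16.6 CPM in ES in 2i, and 19.9 and 15.5 CPM in ES. The iPS libraries lay below the other 8. Its log2 change was -1.17 ± 0.23 in iPS against NPC (adjusted p = 9.34e-05) and 0.80 ± 0.21 in iPS in 2i against iPS (adjusted p = 0.00244). In iPS against ES it was -0.64 ± 0.21 (adjusted p = 0.0113), a call lost in DESeq2 and without iPS replicate 1 or ES replicate 1. Zfp932, a repressor of endogenous retroviruses in mouse ES cells, had 5.12 and 4.67 CPM in iPS in 2i, 2.68 and 2.89 CPM in iPS, 7.53 and 10.4 CPM in NPC, 5.01 and 4.28 CPM in ES in 2i, and 6.90 and 5.27 CPM in ES. Here too iPS was lowest, with a log2 change of -1.68 ± 0.36 against NPC (adjusted p = 0.000263) and -1.12 ± 0.32 against ES (adjusted p = 0.00411). The first of these calls was lost without NPC replicate 2, and the second without ES replicate 1 and in DESeq2. Zfp809, which silences murine leukaemia provirus, passed in none of the 7 comparisons in its tested model, with 1.02 to 2.87 CPM, and Zfp568 was not analysed here. Zfp622, a factor of ribosome assembly, had 83.6 and 80.5 CPM in iPS in 2i, 83.3 and 75.4 CPM in iPS, 20.1 and 24.6 CPM in NPC, 75.4 and 75.0 CPM in ES in 2i, and 82.4 and 76.4 CPM in ES in its main model. The 8 libraries of pluripotent cells lay between 75.0 and 83.6 CPM, and NPC lay below them (-1.77 ± 0.17 against ES, adjusted p = 2.49e-10). Zfp598 and Zfp593 were not analysed here.

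**Figure D3:**
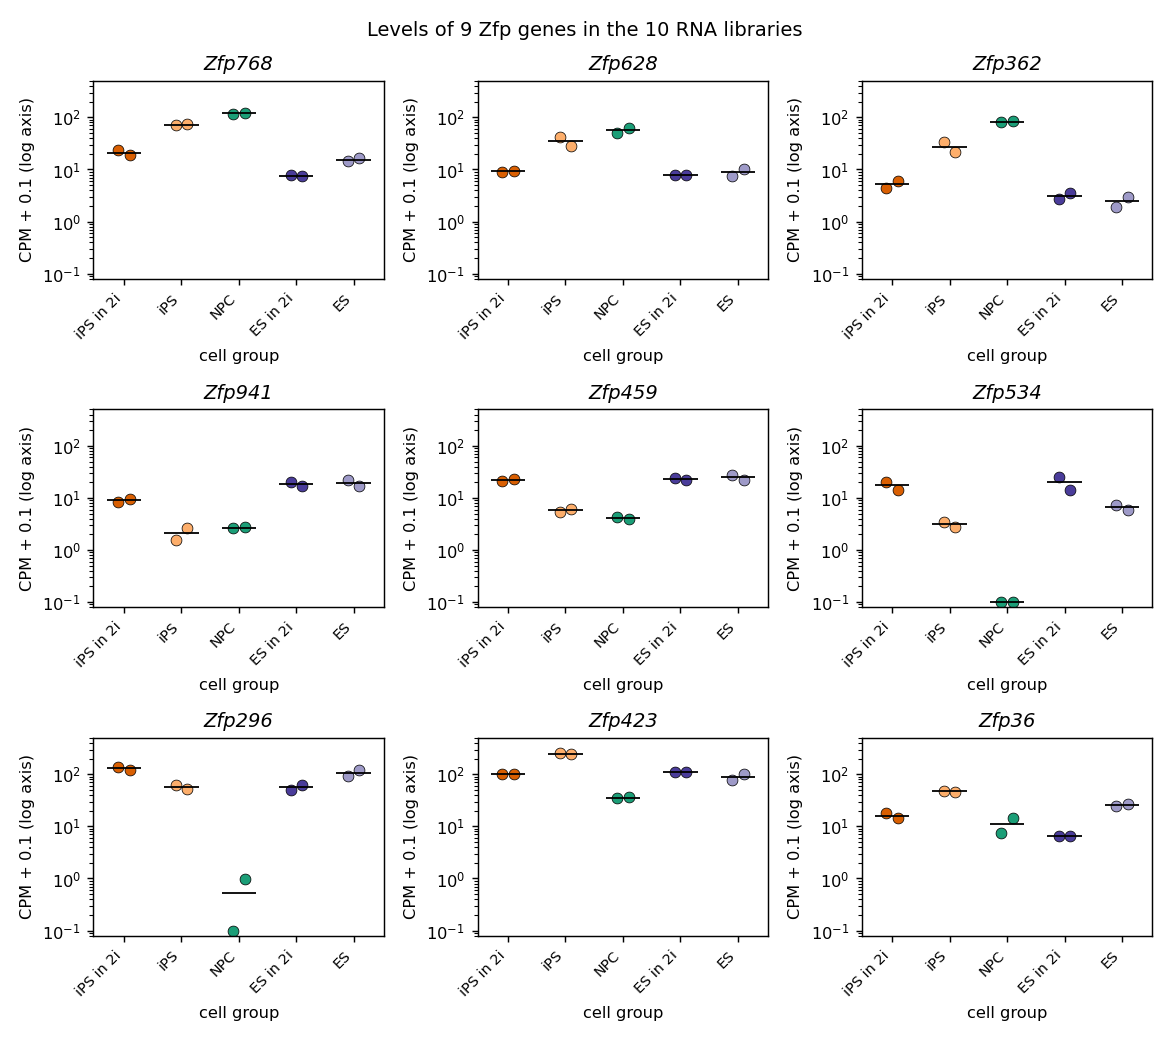
Levels of 9 Zfp genes in each of the 10 RNA libraries as CPM + 0.1 on a log axis; points are libraries, bars are means of the 2 libraries of a group. Zfp768, Zfp628 and Zfp362 are highest in NPC and next in iPS, Zfp941 and Zfp459 are low in both, Zfp534 and Zfp296 are at or near 0 in NPC, and Zfp423 is highest in iPS and lowest in NPC.

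The leading members of each comparison are described next among those past the threshold with a mean of at least 2 log2 CPM over all libraries. In NPC against ES, the largest rise was that of Zfp362 (uc008uvn.1, mm9 chr4:128450329-128483356). It had 82.0 and 84.0 CPM in NPC, against 1.80 and 2.90 CPM in ES, a log2 change of 5.18 ± 0.28 (adjusted p = 1.22e-16). Zfp768 (mm9 chr7:134486309-134488828), linked in human cells to RAS signalling, had 116 and 123 CPM in NPC against 14.4 and 16.3 CPM in ES (2.97 ± 0.17, adjusted p = 1.48e-15). Zfp316, Zfp628, Zfp319 and Zfp358 rose by 2.72 to 3.25 on the log2 scale. Among those that fell, Zfp280b had 16.7 and 24.3 CPM in NPC, against 202 and 199 CPM in ES (-3.18 ± 0.17, adjusted p = 1.86e-16). Zfp534 had no count in NPC and 7.35 and 5.79 CPM in ES, which made it at least 3.89-fold lower, taken against 3 counts per library. Zfp941 (-2.85 ± 0.36) and Zfp566 (-2.77 ± 0.39) fell as well. Zfp750 (human ZNF750 acts in epidermal differentiation) had 3 counts in NPC and was 11.1-fold lower (counting interval 3.73 to 54.5), but its model overlaps Tbcd, so its reads are uncertain. Without NPC replicate 2, which leaves the shallowest library alone, 27 members were higher in place of 50.

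In iPS against NPC, the rises were led by the members that NPC lacked or nearly lacked. Zfp296 was 87.7-fold higher in scaled counts (counting interval 29.9 to 426), Zfp750 21.8-fold (7.32 to 107) and Zfp534 at least 1.78-fold. Zfp423 followed with 2.79 ± 0.17 on the log2 scale (adjusted p = 2.52e-15). Zfp174, a SCAN domain protein, had 13.8 and 15.7 CPM in iPS, against 4.19 and 1.45 CPM in NPC (2.62 ± 0.40, adjusted p = 1.62e-06), and Zfp7 rose by 2.28 ± 0.48. The larger group that fell was led by Zfp719, with 3.92 and 4.26 CPM in iPS against 20.9 and 22.9 CPM in NPC (-2.37 ± 0.30, adjusted p = 5.7e-08). Zfp770, Zfp354c, Zfp157, Zfp871 and Zfp146, a small protein built of little but fingers, fell by 1.81 to 2.27 on the same scale. Zfp719 and these 5 members had levels in ES between those of iPS and NPC in the means of both libraries. Without NPC replicate 2, 34 members were lower in place of 56, and the calls for Zfp534 and Zfp7 were lost.

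Set against ES, iPS cells had 48 members that were lower by at least 2-fold and 25 that were higher by as much, 25.3% and 13.2% of the 190, beside 17.5% and 16.5% of all models past the same limits. Zfp941 (mm9 chr7:147995576-148008077) fell furthest. It had 1.44 and 2.55 CPM in iPS, against 22.3 and 16.9 CPM in ES (-3.16 ± 0.29, adjusted p = 1.43e-10). Zfp459 (mm9 chr13:67506658-67522354) had 5.36 and 6.13 CPM in iPS, against 27.9 and 22.1 CPM in ES (-2.10 ± 0.23, adjusted p = 3.13e-09). Zfp369, a mouse neurotrophin receptor-interacting factor, had 3.71 and 7.49 CPM in iPS, against 36.1 and 29.8 CPM in ES (-2.50 ± 0.25, adjusted p = 8.69e-10). In these 3 genes the groups did not overlap. NPC overlapped iPS in Zfp941. In Zfp459 NPC lay lower, but iPS against NPC did not pass (0.54 ± 0.36, adjusted p = 0.216). Zfp59, Zfp866 and Zfp566 fell by 2.16, 2.01 and 1.97.

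The members higher in iPS than in ES included several that were high in NPC. Zfp362 had 33.0 and 22.0 CPM in iPS, against 1.80 and 2.90 CPM in ES (3.59 ± 0.28, adjusted p = 2.68e-12). Zfp768 had 70.3 and 73.9 CPM in iPS, against 14.4 and 16.3 CPM in ES (2.24 ± 0.17, adjusted p = 1.68e-12). Zfp628 (mm9 chr7:4866819-4873605) had 42.7 and 27.6 CPM in iPS, against 7.52 and 10.3 CPM in ES (2.03 ± 0.23, adjusted p = 6.62e-09). All 3 stood in iPS between NPC and ES without overlap. Zfp523, the mouse counterpart of human ZNF76, rose by 2.18 ± 0.20 and Zfp282 by 1.92 ± 0.15. Feeder fibroblast markers and Tubb3 were higher in iPS than in ES, and the share of reads in no model differed between the ES replicates; their part in these changes was not tested. Leaving out the libraries with the largest such shares (replicate 1 of NPC and replicate 2 of ES) cannot test that part. Both iPS libraries stay in, at 75.8% and 68.4% of reads in no model, beside an ES library at 26.5%.

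In ES in 2i against ES, Zfp36 (above), Zfp697 and Zfp334 fell most. Zfp334 had 14.0 and 13.2 CPM in ES in 2i, against 50.4 and 46.3 CPM in ES (-1.82 ± 0.16, adjusted p = 1.92e-10). Zfp697 (uc012cui.1) had 2.44 and 2.34 CPM in ES in 2i, against 10.6 and 10.3 CPM in ES (-2.02 ± 0.26, adjusted p = 2.84e-07). Zfp503, Zfp358 and Zfp768 fell by 1.18, 1.04 and 0.98. Zfp518a rose most, with 14.4 and 10.2 CPM in ES in 2i, against 3.59 and 3.42 CPM in ES (1.73 ± 0.27, adjusted p = 1.14e-05). Zfp534 (mm9 chr4:147047612-147076662) had 25.7 and 14.2 CPM in ES in 2i, against 7.35 and 5.79 CPM in ES (1.51 ± 0.26, adjusted p = 4.03e-05). Zfp827 (uc009mii.1), whose human counterpart ZNF827 acts at telomeres, rose by 1.71 ± 0.32. Its other tested model (uc009mig.1) changed by 0.75 ± 0.43 and did not pass. Zfp229, Zfp560 and Zfp808 rose by 0.98 to 1.11, calls that DESeq2 did not make. Without ES replicate 1, the calls for these 3 members, Zfp503 and Zfp827 were lost, and 8 members were higher and 13 lower, and without ES in 2i replicate 1, 8 were higher. DESeq2 called 4 higher and 10 lower.

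Comparing iPS in 2i with iPS, the leading rises included members that were low in iPS against ES, and the leading falls members that were high there. Both comparisons use the same 2 iPS libraries on opposite sides. An error in the iPS level alone would thus give such a mirror pattern, and its part was not tested. Zfp941 had 8.20 and 9.54 CPM in iPS in 2i, against 1.44 and 2.55 CPM in iPS (2.01 ± 0.32, adjusted p = 4.48e-06). Zfp459 had 20.7 and 23.4 CPM in iPS in 2i, against 5.36 and 6.13 CPM in iPS (1.90 ± 0.23, adjusted p = 4.8e-08). Zfp870 had 17.8 and 23.2 CPM in iPS in 2i, against 4.95 and 5.62 CPM in iPS (1.93 ± 0.24, adjusted p = 7.13e-08). In each of these the 2 groups were far apart. Zfp534 had 20.5 and 14.3 CPM in iPS in 2i, against 3.30 and 2.72 CPM in iPS (2.42 ± 0.33, adjusted p = 4.49e-07), and Zfp229 (2.31 ± 0.35) and Zfp59 (2.08 ± 0.28) rose too. Downward, Zfp362 had 4.30 and 5.89 CPM in iPS in 2i, against 33.0 and 22.0 CPM in iPS (-2.32 ± 0.25, adjusted p = 4.53e-09). Zfp628 had 8.81 and 9.34 CPM in iPS in 2i, against 42.7 and 27.6 CPM in iPS (-1.91 ± 0.22, adjusted p = 3.26e-08). Zfp768 had 23.4 and 18.7 CPM in iPS in 2i, against 70.3 and 73.9 CPM in iPS (-1.79 ± 0.16, adjusted p = 2e-10). Zfp503, Zfp580 and Zfp697 (uc012cui.1) were the other leading falls. Fibroblast markers, in their sum, and Tubb3 were lower in iPS in 2i than in iPS, and their part in these changes was not tested.

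Between iPS in 2i and ES in 2i, 7 members differed by at least 2-fold in each direction, which is 3.68% of the 190, beside 5.21% of all models higher and 3.09% lower past the same limits. Zfp768 had 23.4 and 18.7 CPM in iPS in 2i, against 7.71 and 7.34 CPM in ES in 2i (1.43 ± 0.18, adjusted p = 3.23e-07). Zfp523 was higher as well (1.04 ± 0.19, adjusted p = 0.000125), with Zfp36 and Zfp296 (above), Zfp697 (uc008qpt.2) and Zfp651. Zfp367 had 8.61 and 12.3 CPM in iPS in 2i, against 33.9 and 27.2 CPM in ES in 2i (-1.49 ± 0.24, adjusted p = 3.19e-05). Zfp941 was lower in iPS in 2i, at 8.20 and 9.54 CPM, than in ES in 2i, at 19.9 and 16.9 CPM (-1.02 ± 0.22, adjusted p = 0.000853). Zfp330 (uc009mjp.1), a nucleolar protein, and Zfp597 were lower by 1.06 and 1.01, and Zfp930 and Zfp560 by 0.86 and 0.83. The other tested model of Zfp330 (uc009mjo.1) changed by -0.04 (adjusted p = 0.944), and that of Zfp697 (uc012cui.1) by -0.08 (adjusted p = 0.889). With the models of a gene summed, the call for Zfp697 was lost. DESeq2 did not make the calls for Zfp697, Zfp930 and Zfp560, which were also lost without iPS in 2i replicate 1 or ES in 2i replicate 2. The calls for Zfp697, Zfp930 and Zfp330 were lost without iPS in 2i replicate 2, and those for Zfp697, Zfp560 and Zfp651 without ES in 2i replicate 1. Counts here leaned on single libraries. They were 8 higher without ES in 2i replicate 1, 12 higher and 6 lower without iPS in 2i replicate 1, 13 higher without iPS in 2i replicate 2, and 25 lower without ES replicate 2, which is in neither group but enters the same fit. DESeq2 called 12 higher and 8 lower, and without the low-count filter 13 were higher and 17 lower.

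The responses to 2i in iPS and in ES cells share no library, and could be set side by side. Of the 190 models, 10 were higher in 2i in both lines (of 43 in iPS and 16 in ES) and 10 were lower in both (of 32 and 21), which is 5.26% of the models each time. Of all 11031 models, 5.52% were higher in both (609, of 2324 in iPS and 1249 in ES) and 6.55% lower in both (723, of 2377 and 1456). Zfp534, Zfp229, Zfp808 and Zfp518a were among those higher in both, and Zfp36, Zfp334, Zfp503 and Zfp768 among those lower in both. In 4 members (2.11%, beside 3.04% of all models) both responses passed with opposite signs, and they are named after their values were seen. Zfp296, Zfp566 and Zfp35 were higher in iPS in 2i than in iPS (1.19, 1.36 and 0.99) and lower in ES in 2i than in ES (-0.92, -0.60 and -0.65), while Zfp746 was lower in iPS in 2i (-0.996) and higher in ES in 2i (0.40). Across the 190 models the log2 responses in the 2 lines correlated with r = 0.31, beside r = 0.46 across all 11031 models, a description in which genes are not independent replicates.

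The difference between the responses was tested for each member. It shares its iPS and ES libraries with iPS against ES, on opposite sides. An error in those levels would thus move the 2 comparisons in opposite directions, and its part was not tested. Zfp941 (2.14 ± 0.38, adjusted p = 5.94e-05), Zfp296 (2.11 ± 0.22, adjusted p = 2.41e-08) and Zfp459 (2.06 ± 0.29, adjusted p = 2.88e-06) led the members whose response was more positive in iPS than in ES, followed by Zfp566, Zfp870 and Zfp369. Zfp362 (-2.82 ± 0.40, adjusted p = 2.55e-06), Zfp827 (uc009mii.1, -2.44 ± 0.45, adjusted p = 0.000131) and Zfp503 (-2.03 ± 0.57, adjusted p = 0.00799) led those whose response was more negative, followed by Zfp628, Zfp580 and Zfp341, the activator of STAT3 transcription in humans. The other tested model of Zfp827 (uc009mig.1), at a mean of 0.52 log2 CPM, gave 0.58 ± 0.63 (adjusted p = 0.541). The models of Zfp580 and Zfp341 each overlap another model, so their reads are uncertain. Without iPS in 2i replicate 2 or without ES replicate 1, 24 members were more positive in place of 40, and without iPS replicate 1 or in DESeq2, 25 were. Without ES replicate 1, 11 were more negative in place of 17, and the call for Zfp503 was lost without iPS replicate 1 or without ES in 2i replicate 1.

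**Figure D4:**
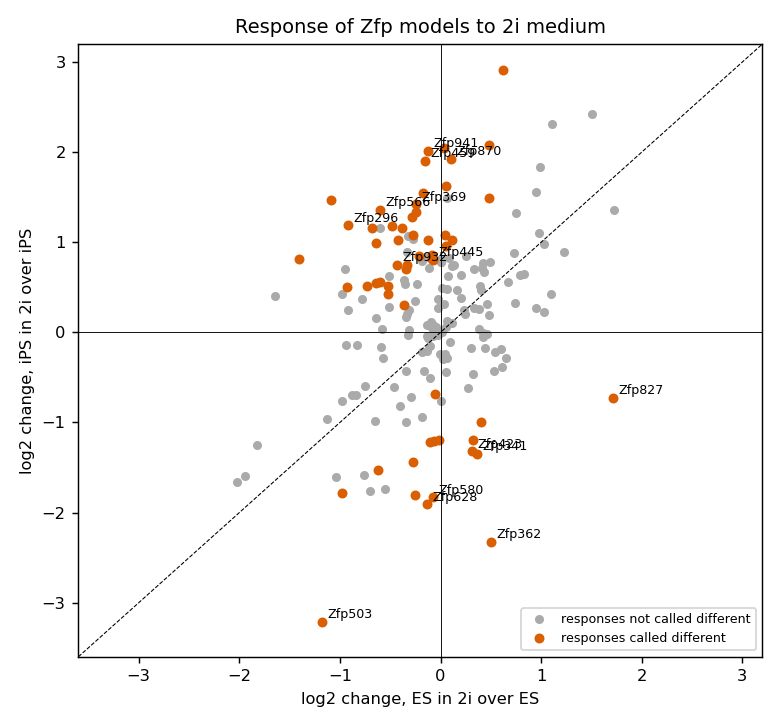
Log2 change in 2i of the 190 Zfp models in iPS cells (vertical) against that in ES cells (horizontal), with the line of equal response dashed; orange points are the models whose responses were called different. Most orange points lie above the line, among them Zfp941, Zfp459 and Zfp296, while Zfp362, Zfp503 and Zfp827 lie below it.

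Members that lie close to one another were compared with those that stand alone. Of the tested models, 80 had another member gene within 100000 bases and 110 did not. Between iPS and ES, 13 of the 80 were higher and 29 lower (median -0.54), and 23 of the 110 were higher and 31 lower (median -0.28). Between iPS in 2i and iPS, 22 of the 80 were higher and 9 lower (0.50), against 21 and 23 of the 110 (0.18). The difference between responses was positive for 23 and negative for 6 of the 80 (0.61), and positive for 17 and negative for 11 of the 110 (0.14). Of all models, 25.9% were higher and 26.9% lower in iPS against ES, and 21.1% and 21.5% in iPS in 2i against iPS. The difference between responses was called positive for 15.1% of all models and negative for 12.2%. How the 80 differed from the 110 was not tested. Reads from near-identical neighbours can be split or lost in counting, and how the authors treated them is not given in the sources used here.

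Chromosome 13 held 14 tested models, counted over the whole chromosome. It carries a cluster of KRAB genes that includes the regulators of sex-limited protein, but the 14 were not split by that cluster. The member gene nearest to each of Zfp367 and Zfp369 lay 1125655 bases away. Of all models, 26.9% were lower in iPS than in ES and 25.9% higher. Of the 14, 7 were lower and 0 higher, with a median of -1.01. Among them were Zfp456 (-2.69 ± 0.60, adjusted p = 0.000374), Zfp369, Zfp459, Zfp748 (-1.43 ± 0.48), one model of Zfp367 (-1.30 ± 0.29) and Zfp874b (-1.26 ± 0.34). Zfp456 rested on 2 counts in iPS and 57 in ES, a ratio 14.1-fold lower in iPS with a counting interval of 3.74 to 120. In 2i against serum in iPS cells, 3 of the 14 were higher and 0 lower (median 0.81), namely Zfp369, Zfp459 and Zfp808, whose model overlaps A130040M12Rik. Of all models, 21.1% were higher there and 21.5% lower. The chromosome was singled out after its values were seen.

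Promoter windows of 300 bases (250 before and 50 after the start) were found in RefSeq for 159 of the 193 genes. Their median GC content was 55.7% with 16 CpG, beside 52.8% and 7 CpG over 27025 genes of the RefSeq table and 61.3% and 21 CpG over the 6676 named genes tested that had a window. For iPS against ES, the members called higher had a median GC content of 65.7% (n = 31), those called lower 52.8% (n = 50) and the others 55.3% (n = 72). For iPS in 2i against iPS, those called higher had 51.5% (n = 38) and those called lower 66.0% (n = 26). Across the 153 tested models with a window, GC content and log2 change correlated with r = 0.51 in iPS against ES, -0.52 in iPS in 2i against iPS and -0.54 for the difference between responses. The r was 0.25 in NPC against ES, 0.13 in iPS against NPC, 0.03 in ES in 2i against ES and 0.04 in iPS in 2i against ES in 2i. Zfp768 and Zfp628 above belong to the GC-rich end, and Zfp941 and Zfp459 to the other. These r share libraries and describe genes, not replicates, and models of a gene share a window. GC content also correlated with the difference between 2 replicates of a group, with r of -0.30 (ES in 2i) to 0.20 (iPS), and the part of library composition was not tested. Windows were found for 80.5% of the tested members but for only 72.5% of all named models, so the background covers only the 7510 that had one. Of these, models called higher in iPS against ES had a median GC content of 62.3% (n = 2064), and those called lower 60.7% (n = 2051). For iPS in 2i against iPS, those called lower had 63.0% (n = 1707), above the median of those called higher (n = 1565). Over the 7510, r was 0.10 in iPS against ES, -0.14 in iPS in 2i against iPS and -0.13 for the difference between responses. The difference of these values from those of the members was not tested.

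**Figure D5:**
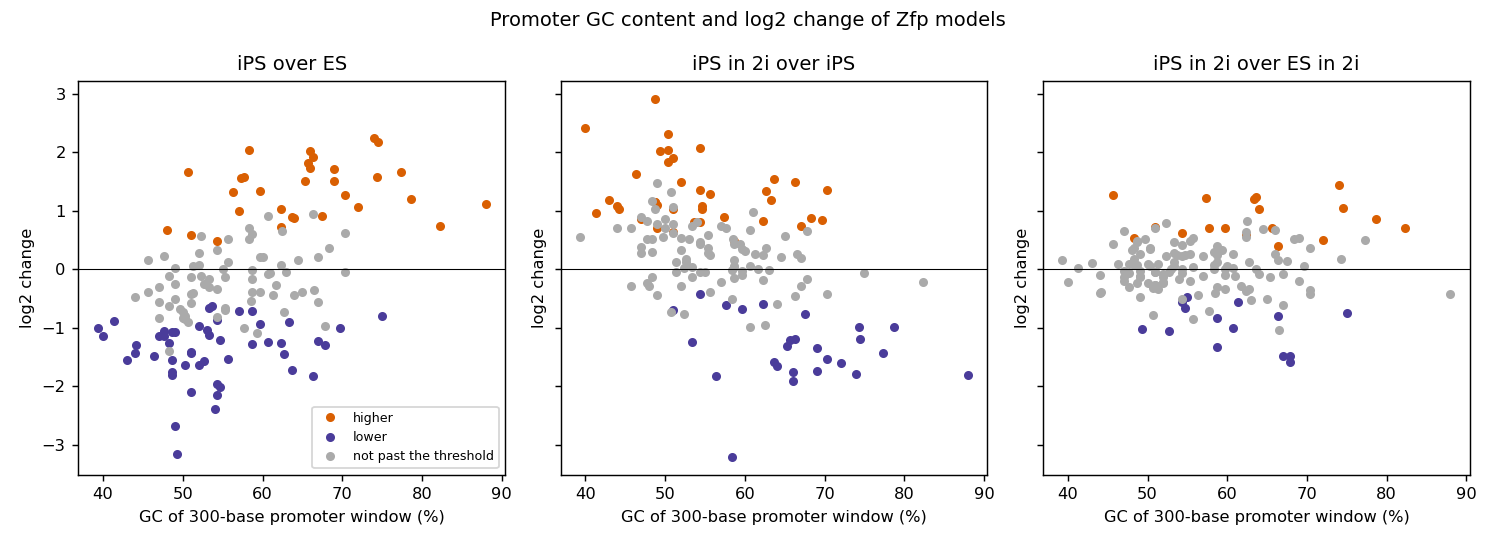
GC content of the 300-base promoter window (horizontal, %) against log2 change (vertical) of the 153 Zfp models with a window, in iPS over ES, iPS in 2i over iPS and iPS in 2i over ES in 2i; orange is higher, purple lower and grey not past the threshold. Points climb with GC in the first panel, descend with GC in the second and show little slope in the third.

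Letters of 5 known motifs were searched in both strands of these windows. CCGGAAG, the core of ETS-type sites, was present in 24.5% of member windows, against 19.7% of windows of named genes tested and 9.9% of all windows. CCAAT was present in 53.5%, against 42.2% and 41.1%. GGGCGGGG, an SP and KLF motif, was present in 21.4%, against 37.4% and 19.6%. The NRF1 motif was present in 3.8%, against 2.2% and 1.1%, and TATAAA in 8.8%, against 8.3% and 15.7%. None of these motifs contains another.

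Genes that work with KRAB zinc finger proteins were measured in part, with 11 of 21 listed genes tested. Trim28 had 5996 and 5871 CPM in iPS in 2i, 5185 and 4774 CPM in iPS, 1818 and 2043 CPM in NPC, 4255 and 4914 CPM in ES in 2i, and 4258 and 4763 CPM in ES. It was lower in NPC than in ES (-1.22 ± 0.13, adjusted p = 9.31e-10) and did not pass in iPS against ES (0.14 ± 0.12, adjusted p = 0.353). The tested model of Setdb1 had 0.290 to 2.26 CPM over the 10 libraries and passed in neither comparison. Reads ambiguous between models were not counted, so this can understate the gene, and the extent of that loss was not tested. In iPS against ES, 6 of the 11 were lower and 0 higher, beside 26.9% and 25.9% of all models. Among the 6 were Hells, a helper of DNA methylation (-1.69 ± 0.18, adjusted p = 2.28e-09), and the heterochromatin protein gene Cbx1 (-1.51 ± 0.20, adjusted p = 1.33e-07). Higher in iPS in 2i than in iPS were Hells (1.32 ± 0.18, adjusted p = 4.57e-07), Cbx1 (0.79 ± 0.21), Morc3 (0.93 ± 0.18) and Atrx (1.43 ± 0.32), and none of the 11 was lower. Of all models, 21.1% were higher there and 21.5% lower. In NPC against ES, 2 of the 11 were higher and 6 lower, beside 27.3% and 33.7% of all models. In ES in 2i against ES, 0 were higher and 1 lower, beside 11.3% and 13.2%. In iPS in 2i against ES in 2i, 1 was higher (Trim28) and 3 were lower (Hells, Cbx1 and Cbx3), beside 13.7% and 11.6%.

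Zinc finger genes with other kinds of name were counted in the same fit. Of all models, 25.9% were higher and 26.9% lower in iPS against ES, and 21.1% and 21.5% in iPS in 2i against iPS. Of 21 models named Zbtb, 5 were higher and 4 lower in iPS than in ES (median 0.12), and 3 were higher and 5 lower in iPS in 2i than in iPS (-0.12). Of 9 named Zscan or Zkscan, 1 was higher and 1 lower in iPS against ES (-0.18), and 1 was higher in iPS in 2i against iPS (0.27). Of 13 named Zc3h, 5 were higher and 2 lower in iPS against ES (0.26), and 0 were higher and 3 lower in iPS in 2i against iPS (-0.08). Of 10 named Zcchc, 3 were higher and 6 lower in iPS against ES (-0.78), and 5 were higher and 2 lower in iPS in 2i against iPS (0.45). Of 12 named Zdhhc, which are membrane acyltransferases, 7 were higher and 2 lower in iPS against ES (0.89). In iPS in 2i against iPS, 1 of these was higher and 5 were lower (-0.45). Of 9 named Zmym or Zmiz, 2 were higher and 2 lower in iPS against ES (-0.02), and 2 and 1 in iPS in 2i against iPS (0.30). Of 5 named Zswim, 0 were higher and 0 lower in iPS against ES (0.12), and 2 and 1 in iPS in 2i against iPS (0.26). The lists are short, and differences between them and the Zfp members were not tested.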

How the data were processed

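RNA was measured in 10 libraries, 2 in each of 5 groups, made with a stranded, ribosomal RNA-depleting kit per the labels. The authors deposited raw counts for each transcript model; the submitters' processing notes list TopHat2 2.1.0, TopHat, HTSeq and mm9, with the strand setting, counting mode and handling of reads with several matches not given in the sources used here. Also deposited by the authors was a table of log2 values for the 11767 named models, which held the log2 of each count plus 1 up to a constant per library; it gave names and positions, counted from 1 here. The 92 spike-in and 5 summary entries stayed out. Reads in no model were 26.5% to 86.6%, and reads ambiguous between models were 6.0% to 35.6%. Positions are on mm9, and RefSeq sequences on GRCm38.p6.

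Counts of 55419 models were fitted with edgeR 4.0.16 in R 4.3.3 (quasi-likelihood F test, TMM, low-count filter by group, prior count 2) with the group as the only term and 5 residual degrees of freedom. Dispersion corresponded to a coefficient of variation of 0.117. Log2 changes carry a standard error, the change divided by the root of F, and p-values were adjusted by Benjamini-Hochberg over 11031 models at a threshold of 0.05. A gene without counts in a group was set against 3 counts per library; such bounds and the 95% intervals cover counting error only. Named members were those with adjusted p under 0.05 and a mean of at least 2 log2 CPM, the 6 largest changes in each direction, plus members with listed roles. Alternatives were DESeq2 1.42.0, other scalings, no filter, summed models, a replicate block, libraries left out, and limma 3.58.1 on the deposited log2 table, the last chosen after seeing the data. The scripts were tested on simulated data. Members and lists were chosen with earlier results of these data known. A split by protein domain had been planned and was not made. 5C libraries were not used here.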

Additional observations from a re-analysis of the deposited data

Results flagged for a closer look

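For 15 named members, the response to 2i differed between iPS and ES cells by the interaction term of the edgeR fit, given as the log2 response in iPS minus that in ES (2 libraries in each of 4 groups). It was positive for Zfp941 (2.14, adjusted p = 5.94e-05), Zfp296 (2.11, adjusted p = 2.41e-08), Zfp459 (2.06, adjusted p = 2.88e-06), Zfp566 (1.96, adjusted p = 0.000107), Zfp870 (1.82, adjusted p = 3.3e-05), Zfp369 (1.67, adjusted p = 0.00027), Zfp932 (1.18, adjusted p = 0.0385) and Zfp445 (0.88, adjusted p = 0.0185). It was negative for Zfp362 (-2.82, adjusted p = 2.55e-06), Zfp827 (uc009mii.1 only, -2.44, adjusted p = 0.000131), Zfp503 (-2.03, adjusted p = 0.00799), Zfp628 (-1.77, adjusted p = 0.000102), Zfp580 (-1.76, adjusted p = 0.000322), Zfp341 (-1.71, adjusted p = 0.000145) and Zfp423 (-1.64, adjusted p = 1.2e-07). The response in ES cells itself was -0.13 in Zfp941, -0.15 in Zfp459, 0.10 in Zfp870, -0.14 in Zfp628, -0.07 in Zfp580 and -0.08 in Zfp445 on the log2 scale. It was larger in size in Zfp827 (1.71), Zfp503 (-1.18), Zfp296 (-0.92), Zfp566 (-0.60), Zfp362 (0.50), Zfp932 (-0.43), Zfp341 (0.36), Zfp423 (0.32) and Zfp369 (-0.24). In iPS cells Zfp827 changed by -0.73 and did not pass. The difference between responses also shares its iPS and ES libraries with iPS against ES, on opposite sides. The call for Zfp932 was lost in 9 of 18 alternatives, namely no low-count filter, DESeq2, limma on the deposited log2 values and leaving out either iPS in 2i library, either iPS library, ES in 2i replicate 2 or ES replicate 1. That for Zfp445 was lost in 5 of 18, namely limma and leaving out iPS in 2i replicate 1, iPS replicate 1, ES in 2i replicate 2 or ES replicate 1, and that for Zfp503 without iPS replicate 1 or without ES in 2i replicate 1.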

How the results depend on the processing

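Of 117 results for named members, 90 passed the threshold in every alternative that gave a value, 27 lost the call in at least 1, and 1 changed sign, Zfp622 (uc007vjj.1) in iPS in 2i against ES in 2i at 0.068 with the models of a gene summed. RLE and upper-quartile scaling, a replicate block, summed models and leaving out NPC replicate 1 with ES replicate 2 kept all 14 counts of members within 1.5 times. Without the low-count filter, 13 members were higher in iPS in 2i than in ES in 2i. DESeq2 called 4 higher and 10 lower in ES in 2i against ES, 12 and 8 in iPS in 2i against ES in 2i, and 25 more positive in iPS for the difference between responses. Limma called 6 and 11, 9 and 9, and 25 in the same places. Leaving out each library gave 27 to 48 higher and 32 to 56 lower in NPC against ES, 16 to 26 and 34 to 54 in iPS against NPC, 24 to 36 and 43 to 73 in iPS against ES, 8 to 16 and 13 to 22 in ES in 2i against ES, 30 to 49 and 26 to 32 in iPS in 2i against iPS, 8 to 22 and 6 to 25 in iPS in 2i against ES in 2i, and 24 to 47 and 11 to 18 for the difference between responses. Replicate numbers did not pair the samples (r of -0.08 to 0.07 between replicate differences of 2 groups); the block gave 51 higher and 46 lower in NPC against ES, for example, and Zfp704 in iPS against NPC lost its call. The cause of these shifts was not tested. The shallowest library, in NPC, held 1150624 assigned reads, and what depth limits among the members was not tested.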
